A study of Arabidopsis thaliana with 6 samples.

Results

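Class III peroxidases are secreted haem enzymes of plants that work in the cell wall. They use hydrogen peroxide to oxidise phenolic compounds, and the monolignol radicals made in this way couple into lignin. In the root, lignin strengthens the walls of xylem vessels and forms the Casparian strip, the ring in endodermal walls that blocks flow between cells. The 10 loci described here were listed for a link to lignification of vascular or endodermal walls, or because their array signals had been seen to be higher in spy-3. Loci with a probe set annotated to them alone were kept, and this left 9 of the 10, out of 55 measured genes of the family and 13286 genes measured in this way. The locus left out, AT5G42180 (PER64), encodes a peroxidase known from the Casparian strip and is not analysed here. The 4 loci chosen by their signal, on the same 6 arrays, were AT5G51890, AT2G39040, AT5G14130 and AT5G40150. The 5 remaining loci, listed for lignification, were AT3G21770, AT1G71695, AT5G66390 (PRX72), AT5G05340 (PRX52) and AT2G41480 (PRX25). Each of the 9 genes had 1 probe set and no further probe set shared with other genes.

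RNA came from whole roots of spy-3 seedlings and of wild-type seedlings, both of the Col ecotype, at 7 days on MS agar at 22°C under 16 h of light and 8 h of dark. spy-3 carries a mutant allele of SPY, a gene for an O-linked sugar transferase that represses gibberellin signaling, and no agent was applied to either genotype. Each genotype was measured on 3 Affymetrix ATH1 arrays, which combine the brightness of a group of short oligonucleotides into 1 signal for each probe set. The replicates are described as biological, but nothing says whether they came from separate harvests, so p-values reflect only how far these arrays differ.

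SPY itself gave signals of 244.9, 316.7 and 294.4 in spy-3 and 258.2, 251.7 and 292.3 in wild type (log2 fold change 0.09, limma-adjusted p = 0.728), and an allele that leaves its transcript in place cannot be checked in this way. The median signal of an array was 85.4 to 87.2. Arrays of different genotypes correlated with a Pearson coefficient of 0.952 to 0.963 across probe sets, against 0.958 to 0.966 within a genotype. Of the defining markers chosen for a check of the tissue, none of 5 for xylem (such as CESA4 and XCP1), 7 for endodermis (such as CASP1 and SCR) and 3 for phloem (such as SUC2) had a probe set of its own. Of a list of 10 root hair markers 2 were measured, and both were bright in both genotypes.

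The signals of the 9 peroxidase genes did not move as 1 group. In spy-3, 5 genes had 3 signals above all 3 of wild type, 1 gene had 3 signals below, and 3 genes overlapped. Of the 5 higher genes, 4 are those that were listed because they were higher. Among all 22746 probe sets, 12.7% were higher without overlap and 11.5% were lower without overlap. The fold changes were small: the largest was 1.40-fold.

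**Figure D1:**
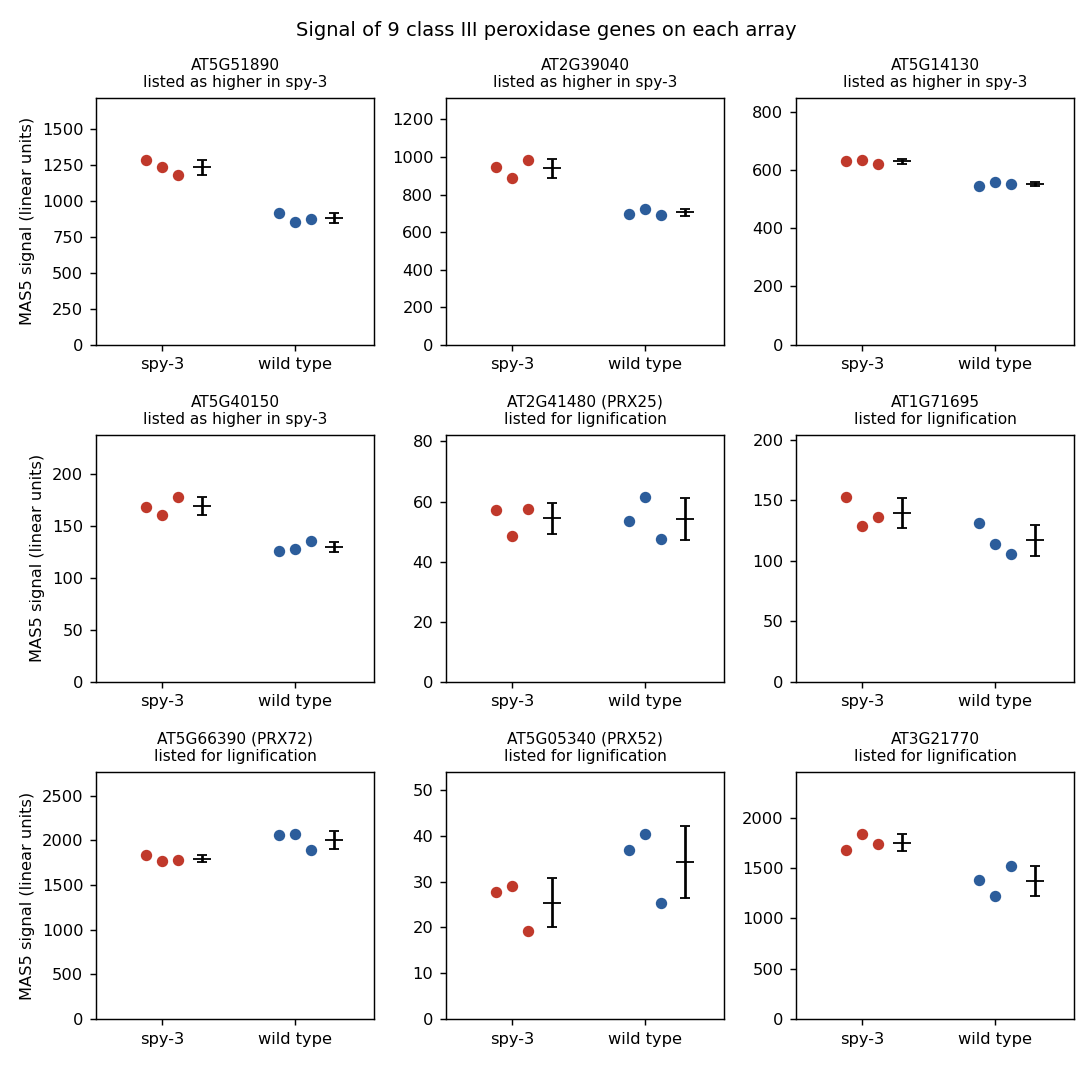
Signals of 9 class III peroxidase genes on each array, 1 panel per gene, with the MAS5 signal in linear units on the vertical axis from 0. Points are single arrays (spy-3 in red, wild type in blue) and the black marks give the mean and SD of 3 arrays. The points of AT5G51890, AT2G39040, AT5G14130, AT5G40150 and AT3G21770 lie higher in spy-3 without overlap, those of PRX72 lie lower, and those of PRX25, AT1G71695 and PRX52 overlap.

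The 4 genes listed as higher are described first, with no test, because the same comparison of genotypes chose them. AT5G51890 had signals of 1284.4, 1232.9 and 1178.4 in spy-3 and 914.3, 852.0 and 871.5 in wild type. The lowest spy-3 array was thus 264.1 units above the highest wild-type array. The means were 1232 ± 53.0 in spy-3 and 879 ± 31.9 in wild type (SD, n = 3 each), a log2 fold change of 0.49 (standard error, SE, 0.05) or 1.40-fold, the largest among the 9 genes.

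AT2G39040 had signals of 947.8, 886.5 and 985.9 in spy-3 and 696.2, 723.7 and 693.0 in wild type. The gap between the genotypes was 162.8 units, wider than the whole spread within either. Its means were 940.1 ± 50.1 in spy-3 and 704 ± 16.9 in wild type (SD, n = 3 each), or 1.33-fold higher in spy-3 (log2 fold change 0.42, SE 0.05). AT5G40150 had signals of 168.6, 160.8 and 178.0 in spy-3 and 126.1, 128.1 and 135.2 in wild type. All 3 spy-3 arrays were again above the wild-type arrays, with a gap of 25.6 units and a log2 fold change of 0.38 (SE 0.07), or 1.30-fold.

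AT5G14130 had the smallest difference of the 4 and also the closest replicates. Its signals were 632.4, 635.8 and 619.9 in spy-3 and 545.6, 558.9 and 551.7 in wild type. The coefficient of variation was 1.33% in spy-3 and 1.21% in wild type, and the difference was 1.14-fold (log2 fold change 0.19, SE 0.03). Its 95% confidence interval was 0.11 to 0.27 on the log2 scale. Those of AT5G51890, AT2G39040 and AT5G40150 were 0.37 to 0.60, 0.30 to 0.53 and 0.22 to 0.54. All 4 genes were chosen by this same comparison, so the intervals are given as description and do not test 1 gene against another.

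The listing gives no threshold for being higher. The threshold used here is an adjusted p of 0.05 in limma, which 2.64% of all probe sets passed as higher in spy-3. All 4 genes were past it, which is no test because they were chosen for being higher. No other measured gene of the family was past it as higher. The gene nearest to the threshold on the inside was AT5G40150, with the values given above. The nearest on the outside was AT1G68850, a peroxidase that is not among the listed loci, with signals of 406.9, 397.0 and 398.8 in spy-3 and 318.7, 361.9 and 339.3 in wild type (log2 fold change 0.24). Its groups did not overlap either. When any 1 of the 6 arrays was left out, AT5G51890 and AT2G39040 stayed past the threshold and AT5G14130 and AT5G40150 did not. The log2 fold changes stayed at 0.46 to 0.52, 0.38 to 0.46, 0.18 to 0.20 and 0.34 to 0.42 for AT5G51890, AT2G39040, AT5G14130 and AT5G40150. With 1 array left out, fewer probe sets passed in general, 203 to 377 higher in place of 600 and 312 to 496 lower in place of 712. A lost call therefore need not rest on a single array. The same arrays chose these genes, so this is description and no test.

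The 5 genes listed for lignification were compared between the genotypes with limma, and none passed an adjusted p of 0.05, against 5.77% of all probe sets in either direction. This result covers these 5 genes and not every peroxidase that may act in lignification. At an unadjusted p of 0.05, limma called 1 higher and 1 lower in spy-3, AT3G21770 and PRX72, against 19.2% of all probe sets. The analysis of variance named in the methods, run on single probe sets, called 0 after adjustment and 2 before it, against 2.89% and 17.0% of all probe sets. Of the 5 genes 2 had no overlap between the genotypes, beside 24.2% of all probe sets. The lists were chosen with earlier results of these data known, and peroxidases seen to be higher were listed apart. The choice may thus have set part of these counts.

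AT3G21770 came closest to the threshold. Its signals were 1681.3, 1840.0 and 1740.3 in spy-3 and 1384.9, 1222.2 and 1517.3 in wild type. Every spy-3 array was above every wild-type array, by at least 164.0 units, but the wild-type arrays differed among themselves by more than that gap. The means were 1754 ± 80.2 in spy-3 and 1375 ± 148 in wild type (SD, n = 3 each), or 1.28-fold higher in spy-3 (log2 fold change 0.36, SE 0.08, limma-adjusted p = 0.0656). This is a larger fold change than that of AT5G14130, whose replicates were closer. The call depended on the processing: with an offset, median centring, robust variances or the dimmest probe sets left out the gene passed, with adjusted p down to 0.00849 in limma, and without wild type replicate 3 it passed at 0.0492.

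AT5G66390 (PRX72), a peroxidase known from mutants to act in stem lignification, was the only gene of the 9 whose spy-3 signals were all lower. They were 1840.0, 1769.2 and 1776.3 in spy-3 and 2058.5, 2070.9 and 1885.9 in wild type. The lowest wild-type array, replicate 3, was 45.9 units above the highest spy-3 array. Means were 1795 ± 39.0 in spy-3 and 2005 ± 103 in wild type (SD, n = 3 each), or 1.12-fold lower in spy-3, and the log2 fold change of -0.16 (SE 0.05) did not pass (limma-adjusted p = 0.131).

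AT1G71695 had signals of 153.0, 128.9 and 136.2 in spy-3 and 131.1, 113.6 and 106.0 in wild type. Replicate 1 of wild type lay above replicate 2 of spy-3, and the groups overlapped by 2.2 units only. The log2 fold change was 0.26, with a 95% confidence interval from -0.01 to 0.52 (limma-adjusted p = 0.272). The data thus allow a fold change from 0.995 to 1.43 for this gene.

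AT5G05340 (PRX52), which is known to act in lignification of the stem, was dim on all arrays, with signals of 27.8, 29.1 and 19.3 in spy-3 and 36.8, 40.4 and 25.4 in wild type. Its replicates had coefficients of variation of 21.0% in spy-3 and 22.9% in wild type, the highest of the 9 genes. The log2 fold change of -0.42 (SE 0.28, limma-adjusted p = 0.497) was as large in size as that of AT2G39040, but its interval ran from 0.463-fold to 1.2-fold. The data thus allow a decrease as well as a small increase.

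AT2G41480 (PRX25), likewise studied for stem lignin, had signals of 57.2, 48.4 and 57.5 in spy-3 and 53.5, 61.6 and 47.5 in wild type. The highest and the lowest of the 6 values were both from wild type. Its means were 54.4 ± 5.17 in spy-3 and 54.2 ± 7.08 in wild type (SD, n = 3 each), a log2 fold change of 0.01 (limma-adjusted p = 0.990). The interval of the fold change, 0.773 to 1.31, holds the fold changes of AT5G14130 and AT5G40150, so that a difference of that size could not be seen for this gene.

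**Figure D2:**
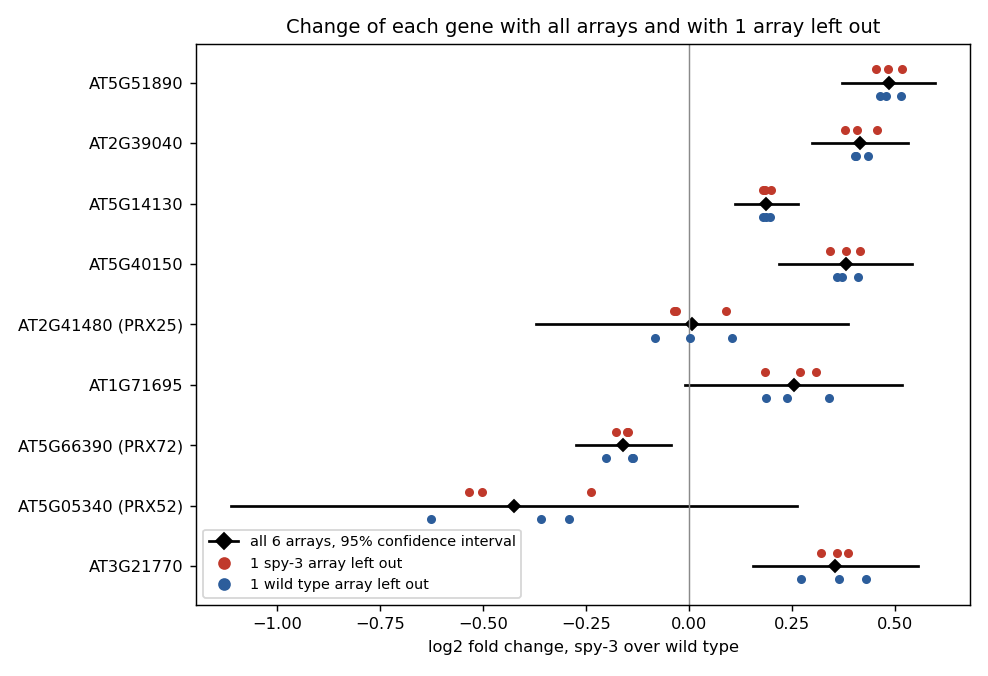
Log2 fold change, spy-3 over wild type, of each of the 9 genes on the horizontal axis. Black diamonds and lines give the value and 95% confidence interval with all 6 arrays, and points give the value without 1 spy-3 array (red) or without 1 wild-type array (blue). PRX25 is the only gene whose points fall on both sides of 0, from -0.08 to 0.10.

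No single array set the differences of the 9 genes together. The highest spy-3 signal came from replicates 1, 2 and 3 in 3 genes each, and the lowest from them in 1, 5 and 3 genes. In wild type the highest signal came from replicates 1, 2 and 3 in 2, 5 and 2 genes, and the lowest in 2, 2 and 5 genes. Wild type replicate 3 was the lowest array for PRX25, AT1G71695, PRX72, PRX52 and AT2G39040 and the highest for AT5G40150 and AT3G21770. Without it, the log2 fold changes of AT3G21770 and PRX52 were 0.43 and -0.63, while those of AT1G71695 and PRX25 were 0.19 and -0.08.

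The spread between replicates also differed between both groups of genes. Over the 4 genes listed as higher, the coefficient of variation of a genotype was 1.21% to 5.34%, whereas over the 5 genes listed for lignification it was 2.17% to 22.9%. Standard errors on the log2 scale were 0.03 to 0.07 in the first group and 0.05 to 0.28 in the second. Because a small spread between replicates helps a gene past the threshold, low variation in the first group is in part set by how its genes were chosen. The highest values of the second group came from PRX52, which is dim. Of its bright genes, PRX72 had 2.17% in spy-3 and 5.16% in wild type, and AT3G21770 had 4.57% and 10.75%. The part of signal level in this difference was not tested.

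Among the rest of the class III peroxidase family, the genes that passed the test were lower in spy-3. Of the 46 measured genes that are not among the 9, 9 fell at an adjusted p of 0.05 in limma, against 3.13% of all probe sets, 0 rose and 37 did not pass. That 0 follows from the choice, because peroxidases seen to be higher were listed. Among the genes that fell, AT5G64120, AT4G33420 and AT1G34510 had the largest decreases. Their log2 fold changes were -0.94, -0.93 and -0.83 (limma-adjusted p = 0.000524, 0.00291 and 0.00086). They are not on the list for lignification, and their part in lignification was not examined. Under some alternatives to this fit, given below, peroxidases that were not listed did pass as higher. Leaving out spy-3 replicate 3 gave 5 decreases in place of 9, leaving out wild type replicate 2 gave 4, and leaving out any other array gave 6 to 8. At an unadjusted p of 0.05, 6 were higher and 13 lower, against 19.2% of all probe sets in either direction. Signals in spy-3 were higher without overlap for 8 of the 46, beside 12.7% of all probe sets, and lower without overlap for 15 of the 46, against 11.5%. The choice lowered the count of 8, because the 4 genes listed as higher had been taken out. The median log2 fold change was -0.04 for these 46 genes, 0.26 for the 9 and 0.02 for all 13286 genes. The 4 genes listed as higher are in the 9 and not in the 46, so the choice set part of this difference. Over all 55 measured genes of the family the median was 0.008, with 29 positive and 26 negative values. Among the 9 genes, 7 had positive fold changes, the 4 listed as higher among them, and 2 had negative ones. Within the 5 listed for lignification the median was 0.01.

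**Figure D3:**
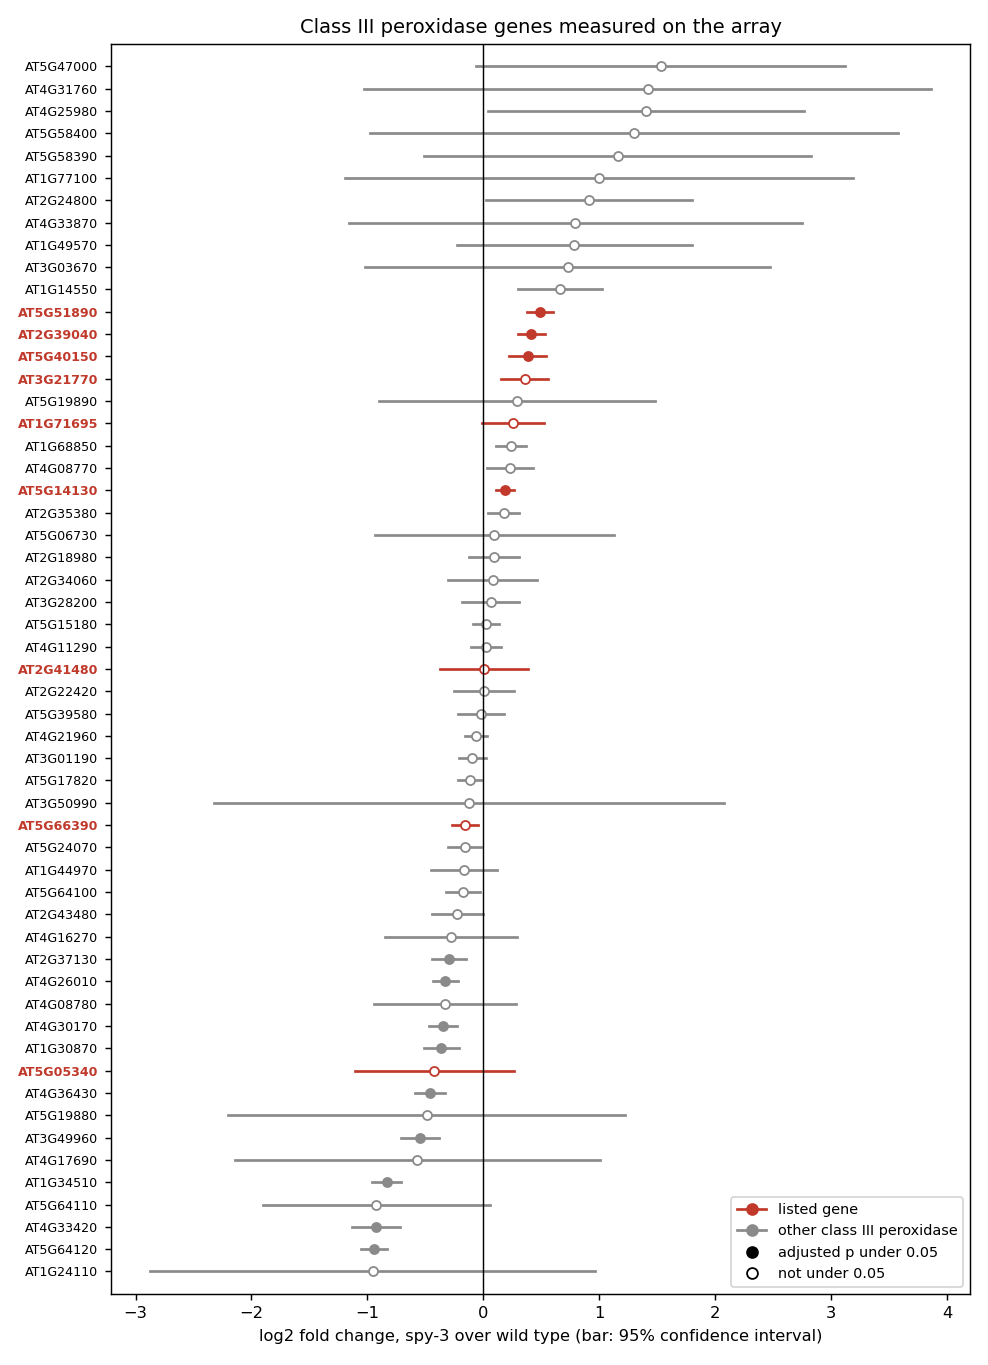
Log2 fold change, spy-3 over wild type, of the 55 measured class III peroxidase genes, ordered by value, with 95% confidence intervals as bars. The 9 listed genes are red and the others grey, and filled points passed an adjusted p of 0.05 in limma. The 4 filled points above 0 are the genes listed as higher, and the 9 filled points below 0 belong to other peroxidases. Wide bars belong to dim genes.

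Both measured root hair markers, of 10 listed, were also lower in spy-3. A link between them and the lower peroxidases was not tested. EXPA7 and EXPA18, expansins of root hair cells, fell in spy-3 by 0.44 and 0.29 on the log2 scale (limma-adjusted p = 0.00274 and 0.018), and their summed signal was 1586.3 to 1702.8 in spy-3 and 2073.9 to 2155.1 in wild type. With 1 array left out, EXPA7 passed in all 6 cases and EXPA18 in 2, with a highest limma-adjusted p of 0.0853. In RNA of whole roots, fewer cells of a type and less RNA per cell cannot be told apart. The 5 listed peroxidases that were higher without overlap moved against these markers. For 4 of them this direction follows from the choice, because they were listed as higher. The part of root hair RNA in the signals of the 5 was not tested. Of the green tissue markers, 3 of 10 were measured. None was at 0, but SBPASE, at 2.6 to 33.3, and PRK, at 1.3 to 13.7, were dim on all arrays. The summed signal of the 3 was 293.5 to 326.6 in spy-3 and 436.5 to 478.6 in wild type, nearly all of it from RCA. Of the 3, RCA alone passed, with a log2 fold change of -0.57 (limma-adjusted p = 0.0027).

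By gene order in the RefSeq annotation of assembly TAIR10.1, the 9 genes do not belong to a local cluster. They lie on chromosomes 1, 2, 3 and 5, and the nearest other peroxidase locus of the family is separated by 58 protein-coding genes for AT5G40150, by 65 for AT2G39040 and by 108 to 525 for the other 7. The 3 genes of the raised group on chromosome 5 are therefore not neighbours. The symbols PRX52 and PER64 are given there, PRX25 and PRX72 are listed as synonyms, and the other loci carry no peroxidase name.

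The peroxidases act on monolignols made inside the cell, and other enzymes and scaffolds decide where lignin forms. Lists of these genes were read from the same fit, but only 10 of 91 listed genes had a probe set of their own. Of the 10, 1 fell, none rose and 9 did not pass, against 3.13% lower and 2.64% higher of all probe sets. Positive log2 fold changes were found in 8 of the 10, and in 7089 of all 13286 genes. Their median was 0.15, beside 0.02 for all genes. At an unadjusted p of 0.05, limma called 1 higher and 1 lower, against 19.2% of all probe sets in either direction, and the analysis of variance called 2 before adjustment and 0 after it, against 17.0% and 2.89%.

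Of 20 genes listed for monolignol synthesis 3 were measured. HCT, an acyltransferase on the route to monolignols, had signals of 1689.9, 1625.8 and 1684.2 in spy-3 and 1687.8, 1619.6 and 1478.3 in wild type. Apart from wild type replicate 3 these values overlap almost completely (log2 fold change 0.07, interval -0.07 to 0.20, limma-adjusted p = 0.599). CCR2, a cinnamoyl-CoA reductase, and CYP84A4, a cytochrome P450 of the same subfamily as ferulate 5-hydroxylase, had log2 fold changes of 0.18 and 0.17 (limma-adjusted p = 0.347 and 0.435). For both, all spy-3 signals were above all wild-type signals, by 2.6 and 1.1 units only. The single measured laccase of 17, LAC16, belongs to the copper enzymes that oxidise monolignols with oxygen in place of peroxide, and had a log2 fold change of -0.03 (limma-adjusted p = 0.958).

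For the xylem secondary wall, 3 of 27 genes were measured, all of xylan synthesis. GUT2, also called IRX10, had signals of 206.9, 210.8 and 222.9 in spy-3 and 182.4, 187.3 and 164.3 in wild type. The groups were 19.6 units apart, but the log2 fold change of 0.26 (SE 0.07) did not pass (limma-adjusted p = 0.0908). IRX15 and IRX15-L had log2 fold changes of 0.24 and 0.13 (limma-adjusted p = 0.61 and 0.385).

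For the Casparian strip, 3 of 16 genes were measured. AT1G61590 had signals of 677.9, 589.0 and 648.4 in spy-3 and 780.2, 829.5 and 756.2 in wild type. Its decrease in spy-3 passed, with a log2 fold change of -0.31 (limma-adjusted p = 0.0459), with a gap of 78.3 units between the genotypes. This call did not hold when any 1 of the 6 arrays was left out (adjusted p of 0.0564 to 0.157 in limma), nor by the analysis of variance (adjusted p = 0.151). The log2 fold change stayed at -0.35 to -0.25 with 1 array left out. Of the 9 other alternatives, the analysis of variance among them, the gene passed in 6. GSO1, a receptor kinase that guards the integrity of the strip, had signals of 444.6, 434.8 and 498.0 in spy-3 and 457.1, 445.3 and 471.8 in wild type, with a log2 fold change of 0.00 and an interval from -0.14 to 0.15. AT4G34600 had a log2 fold change of 0.18 (limma-adjusted p = 0.507). None of 11 suberin genes was measured.

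**Figure D4:**
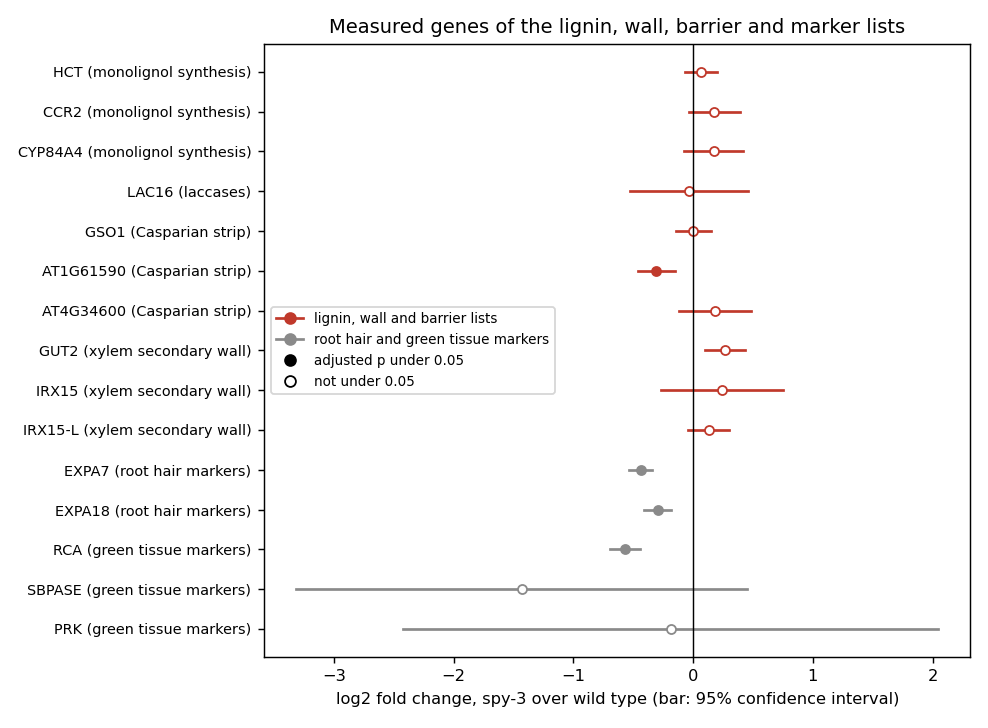
Log2 fold change, spy-3 over wild type, with 95% confidence intervals as bars, of the measured genes of the lignin, wall and barrier lists (red) and of root hair and green tissue markers (grey). Filled points had a limma-adjusted p under 0.05. Of the 10 red genes only AT1G61590, at -0.31, is filled, and EXPA7, EXPA18 and RCA are filled among the markers.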

How the data were processed

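The values deposited by the authors are linear intensity signals, 1 for each probe set and array, made with MAS5 and scaled to a common mean. The submitters' notes name MAS5, whose version is not given in the sources used here. No detection calls were used, and the number of arrays sets the precision. Values below 1 were raised to 1 before log2 was taken. All 22746 probe sets were fitted with limma 3.58.1 in R 4.3.3, using lmFit followed by eBayes with trend, and p-values were adjusted by Benjamini-Hochberg. Tables were handled with Python 3.11.15 and pandas 2.3.3. The code was tested on simulated data. With 3 arrays a genotype, an exact permutation test could reach no p under 0.1.

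Of 13513 probe sets with 1 gene in the platform annotation, 13436 matched a locus in the RefSeq table of TAIR10.1, which served for names and gene order. The brightest probe set by mean signal stood for a gene. The genes named are the listed loci, up to 4 genes of lowest p in each list and the peroxidases nearest to the threshold. Protein and promoter sequences were not analysed here. The members and the lists were chosen with earlier results of these data known.

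Alternatives were median centring, quantile normalization, adding 16 or 64 before log2, dropping the dimmest 40% of probe sets, limma with robust variances or without trend, a one-way analysis of variance, a block for the replicate number, and the omission of each array.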

Additional observations from a re-analysis of the deposited data

How the results depend on the processing

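Of 9 peroxidase genes, 8 kept the direction of their log2 fold change under all alternatives that could be run. The exception was PRX25, close to 0 throughout, with a log2 fold change of 0.01, which ran from -0.083 to 0.104 with 1 array left out and was below 0 without wild type replicate 3, spy-3 replicate 1 or spy-3 replicate 3. PRX52 is among the dimmest 40% and has no value without them. No gene had a second probe set to use instead.

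Among the genes listed for lignification, 0 were called, and 1, AT3G21770, with robust variances, median centring, 16 or 64 added to the signals or the dimmest 40% left out, and 0 to 1 with 1 array left out. Of the 4 genes listed as higher, 2 stayed past the threshold whichever array was left out, without the trend or with the replicate block, 3 with robust variances or the analysis of variance, and 4 under the other alternatives. The same arrays chose these 4 genes, so these counts are no test of them.

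Over all probe sets, 600 were called higher and 712 lower. These counts were 268 and 374 in limma without the trend, 287 and 371 by the analysis of variance, and 203 to 377 and 312 to 496 with 1 array left out. With the replicate block they were 265 and 391, and 2 of the 4 listed genes, AT5G14130 and AT5G40150, did not pass (limma-adjusted p = 0.0942 and 0.0744). Same-numbered arrays did not deviate together (correlations of 0.00 to 0.05 across probe sets), so the numbers were not taken as pairs. Within the family, 7 genes were called higher without the dimmest 40%, 6 with median centring or with 16 or 64 added, and 5 with robust variances. Each of these counts takes in peroxidases that are not among the listed loci. Without the trend or with the replicate block 2 were called higher, and with 1 array left out 2 to 3. Without the trend or by the analysis of variance, 5 in place of 9 were called lower. For the dim PRX25 and PRX52, the spread between arrays limits what could be seen.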
